A study of Mus musculus with 12 samples.

Results

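The genes described here run the calcium cycle of the heart muscle cell: Ryr2, Casq2, Trdn, Jph2, Fkbp1b, Atp2a2, Pln, Cacna1c, Slc8a1 and Camk2d. They were measured by every probe of the deposited non-normalized table to which the platform annotation gives one of these 10 symbols. This gave 18 probes of 25697 on the array, and 16 of these were among the 20573 probes (80.1%) that passed a lenient intensity filter and were tested. A tested probe was not always above background. Transcript levels had been measured on Illumina bead arrays, 1 array for each heart RNA sample, in 12 samples that form 3 groups of 4. The young group was C57Bl/6 mice aged 6 months and left untreated. The aged group was untreated C57Bl/6 mice of 30 to 32 months. The third group was C57Bl/6 mice of the same 30 to 32 months that had received 3 mM spermidine, a natural polyamine, in their drinking water since the age of 4 months. Cages, not single mice, were randomly assigned to treatment or control. No young group with spermidine was among the samples, so an effect of spermidine could be read in aged hearts only. The label of the tissue was heart, with no chamber named. The sample titles number the samples, which are read here as separate mice. Nothing else in the labels says so, and the cage of each sample was not known here. The p-values treat the samples as independent and measure only the spread between them.

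In each heartbeat, calcium entering through the L-type channel of the cell membrane opens the ryanodine receptor of the sarcoplasmic reticulum, the internal calcium store, and the released calcium starts contraction. The muscle relaxes when the pump SERCA2a returns calcium to the store and the sodium-calcium exchanger carries the rest out of the cell. Phospholamban holds the pump back until it is phosphorylated, and the kinase CaMKII phosphorylates both phospholamban and the ryanodine receptor. These questions were asked of the arrays: whether the transcripts of this machinery differed between young and aged hearts, and whether they differed between aged hearts with and without spermidine.

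The mean deposited intensity of an array was 259 to 313 units, and 11689 to 12337 probes per array stood above a background limit of 13.2 to 15.8 units. The measured cardiomyocyte markers, 6 of 7 listed, were above the limit, with a summed intensity of 73713 to 81149 units in the young group, 74362 to 80407 in the aged group and 75132 to 78981 in the spermidine group. Other tissues were present unevenly, between groups and in single arrays. Red blood cell markers, 3 of 4 measured, summed to 19572 to 24369 units in young hearts. They summed to 24360 to 29805 in aged and 25694 to 29819 in spermidine hearts. None of their 3 probes passed in any comparison, and their part in the members' values was not tested. Transcripts of airway epithelium summed to 10049 units in young replicate 4 and to 3576 in spermidine replicate 3, against at most 41 in the other 10 arrays. Atrial transcripts summed to 13542 units in aged replicate 1 against 49665 to 58944 elsewhere. Young replicate 4 also held adipocyte transcripts, whose sum of 3641 units was the highest of all arrays, and spermidine replicate 3 came next with 976. The differences of the members and of the wider calcium genes were also fitted with these 3 arrays left out, and that value is given where it changes how a difference reads.

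None of the tested calcium handling probes passed the test for a difference between groups. In aged against young hearts 0 of 16 probes passed (limma, Benjamini-Hochberg adjusted p below 0.05 over all tested probes), where 164 of all 20573 probes passed, or 0.797%. In aged hearts with spermidine against aged hearts 0 of 16 passed, where 1 of 20573 passed, or 0.00486%. In spermidine against young hearts 0 of 16 passed, where 33 of 20573 passed, or 0.16%. A test of any difference among the 3 groups was passed by 0 of 16, and by 66 of 20573 probes, or 0.321%. With shares as low as these over the whole array, 0 of 16 is not a result about these genes. In bulk heart RNA, fewer cardiomyocytes and less RNA per cardiomyocyte cannot be told apart.

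Without adjustment, 2 of 16 probes had p below 0.05 in aged against young hearts, where 14.3% of all tested probes did: Pln with a lower mean and 1 Cacna1c probe with a higher mean in aged hearts. In the comparisons of spermidine with aged and with young hearts, 0 of 16 did, where 9.45% and 7.49% of all probes did. In the F test over 3 groups 0 of 16 did, where 12.3% did. The groups of 4 values overlapped for all 16 probes in all 3 comparisons. Over all tested probes the share without overlap was 8.07% for aged against young hearts, 3.27% for spermidine against aged hearts and 5.51% for spermidine against young hearts.

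Mean levels of these probes were more often lower than higher in aged than in young hearts. The mean was lower for 12 of 16 probes, with a median difference of -0.11 on the log2 scale, against 51.8% lower and a median of -0.01 over all tested probes. In this comparison the cardiomyocyte markers lay at a like distance: 5 of their 8 probes were lower in aged hearts with a median of -0.12. Between spermidine and aged hearts the median was 0.01 for all 16 member probes and 0.10 for the marker probes. These sets are not alike, since the marker probes were all bright and many member probes were dim. The 6 bright member probes described below had a median of 0.13 in this comparison. None of the 8 marker probes passed in any comparison, and the part of cardiomyocyte RNA as a whole in the members' values was not tested. Between spermidine and aged hearts 7 of 16 were lower with spermidine, with a median of 0.01, against 49.1% lower over all probes. Between spermidine and young hearts 13 of 16 were lower with spermidine, with a median of -0.07, against 52.7% lower over all probes. Both aged groups are set against the same 4 young samples, and the spermidine comparison reuses the 4 aged samples, so these counts are not independent of each other. Among the 6 member probes with a mean log2 level above 8 (Ryr2, Casq2, Pln, Slc8a1 and both of Atp2a2), the medians were -0.20 in aged against young, 0.13 in spermidine against aged and -0.06 in spermidine against young hearts. Over all 4508 probes as bright, the medians were -0.02, 0.02 and -0.00. The Camk2d probe ILMN_1222123, with group means of 7.99 (young), 8.10 (aged) and 7.83 (spermidine), fell just short of this level. It was at 0.11 in aged against young and -0.28 in spermidine against aged hearts, opposite in sign to the medians of the bright members. In spermidine against young hearts it was at -0.17, with the same sign as their median. Medians with this probe included were not computed.

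**Figure D1:**
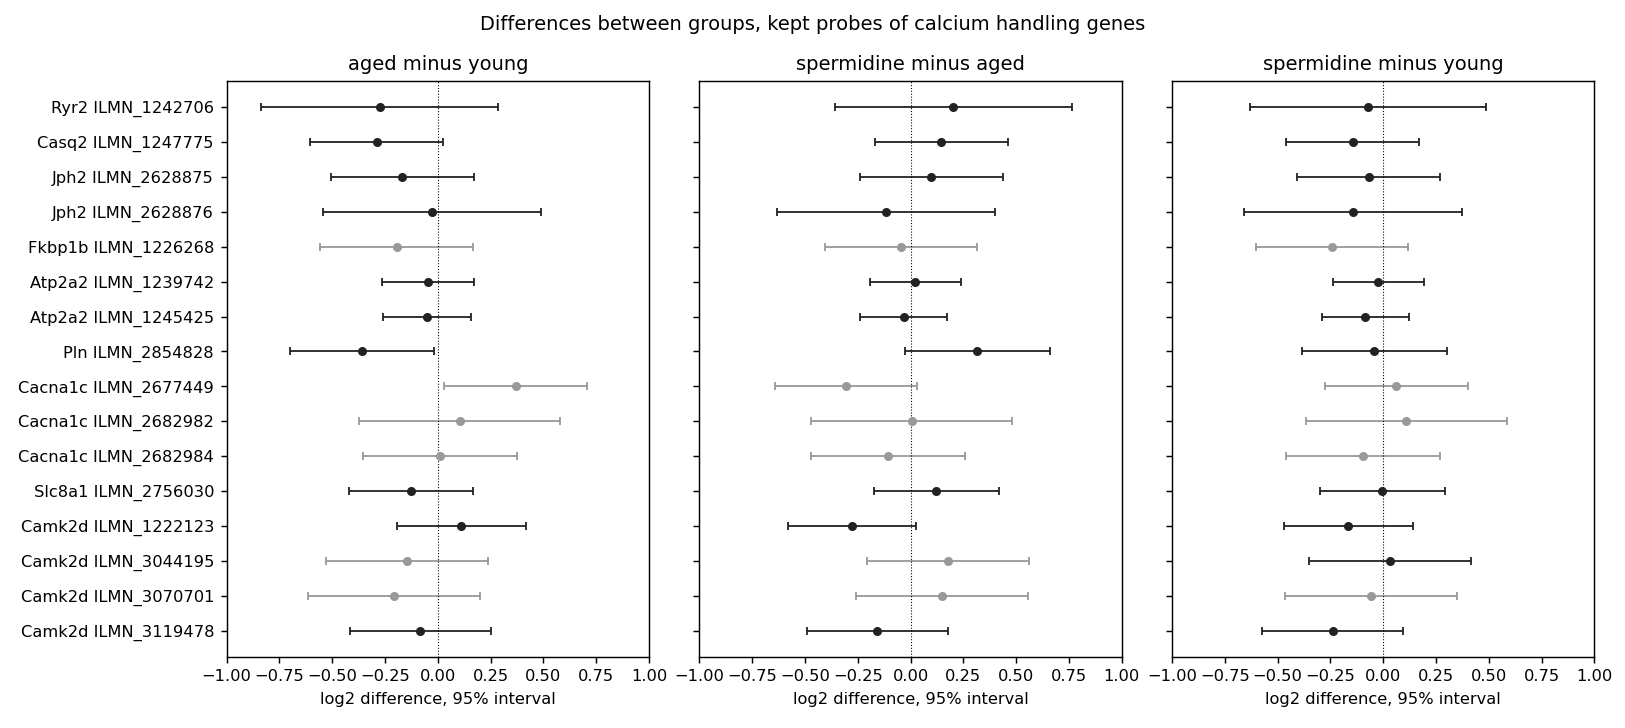
Log2 differences between groups (x axis) with 95% intervals from the limma fit, for the 16 tested probes of calcium handling genes (y axis) in each of 3 comparisons. Grey marks probes that were not above the background limit on all 8 arrays compared. The intervals of all probes reach across 0, other than those of Pln and Cacna1c ILMN_2677449 in aged minus young, and none passed after adjustment.

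Calcium release begins with Ryr2, the ryanodine receptor channel of the heart. Its probe (ILMN_1242706) read 372, 406, 347 and 160 intensity units in young replicates 1 to 4. It read 169, 209, 293 and 309 in the aged replicates, and 318, 182, 333 and 273 in the spermidine replicates. The 4 young hearts thus held both the highest value and the lowest, and each group mixed low and high hearts. After normalization the mean log2 level was 8.28 ± 0.53 (SD, n = 4) in young, 8.0 ± 0.39 in aged and 8.20 ± 0.30 in spermidine hearts. The difference of -0.28 in aged against young hearts had a 95% interval of -0.84 to 0.28 (adjusted p = 0.671, limma). Spermidine hearts differed from aged hearts by 0.20, with an interval of -0.36 to 0.76 (adjusted p = 0.834), and from young hearts by -0.07 (adjusted p = 0.995). As a fold, aged over young, the interval was wide, from 0.561 to 1.22. Single arrays moved the value: the aged difference was -0.54 without young replicate 4, which carried airway transcripts (adjusted p = 0.32), and -0.12 without aged replicate 1 (adjusted p = 0.884). Without the 3 arrays of unlike tissue make-up it was -0.38, and the difference of spermidine from aged hearts was -0.01 in place of 0.20.

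Casq2 encodes the calsequestrin that buffers calcium inside the store next to the release channel. Its probe (ILMN_1247775) read 2134, 2799, 2381 and 1679 units in the young replicates. It read 2233, 1714, 1647 and 1717 in the aged replicates, and 2186, 2020, 1935 and 1686 in the spermidine replicates. Young replicate 4 was at the level of 3 of the aged hearts, and aged replicate 1 was within the range of the young hearts, so the groups overlapped. Mean log2 levels were 11.12 ± 0.29 in young, 10.82 ± 0.13 in aged and 10.97 ± 0.14 in spermidine hearts. The aged difference was -0.29 with an interval of -0.60 to 0.02 (adjusted p = 0.387, limma). It ranged from -0.17 without young replicate 2 to -0.46 with the 3 arrays of unlike tissue left out, and did not pass in any of these fits. Spermidine hearts differed from aged hearts by 0.15, with an interval of -0.17 to 0.46 (adjusted p = 0.779).

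**Figure D2:**
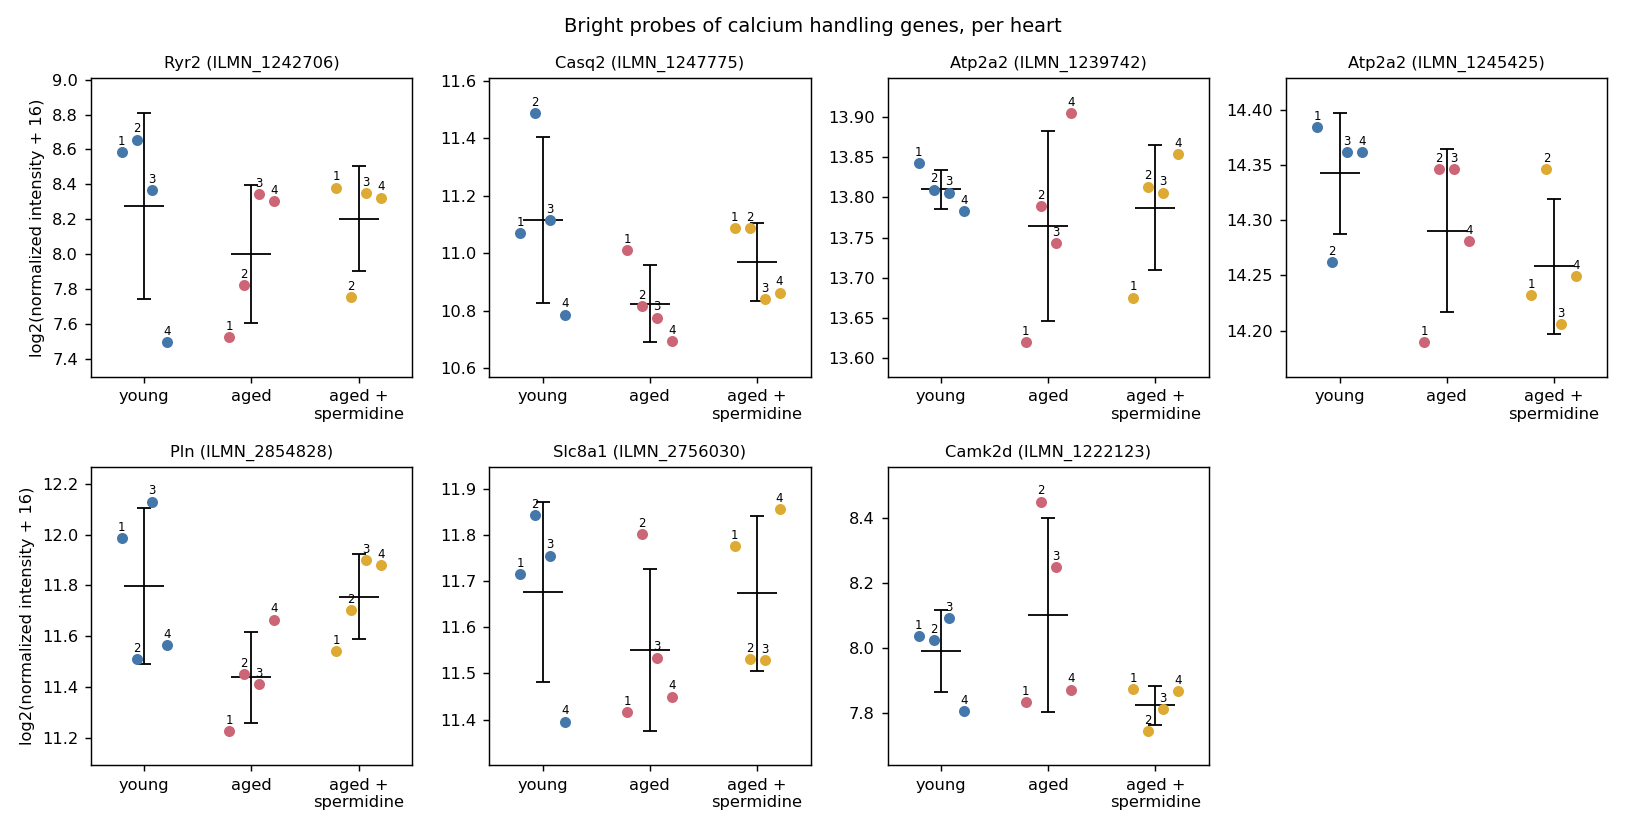
Normalized level (log2 of intensity + 16, y axes with different ranges) of 7 probes of calcium handling genes that were above the background limit on all arrays, by group. Each point is 1 heart with its replicate number, the long bar is the group mean and the whiskers are 1 SD (n = 4). Groups overlap in every panel, and young replicate 4 is the lowest young heart for Ryr2, Casq2, Slc8a1, Camk2d and the Atp2a2 probe ILMN_1239742.

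The remaining release genes were measured by dim probes. Junctophilin 2, encoded by Jph2, ties the store to the cell membrane at the site of release. Its probe ILMN_2628875 read 36, 47, 40 and 21 units in young, 29, 31, 26 and 26 in aged hearts, and 29, 22, 46 and 26 in spermidine hearts. Its other probe, ILMN_2628876, read 35, 73, 47 and 17 units in young, 29, 36, 43 and 40 in aged hearts, and 45, 36, 30 and 19 in spermidine hearts. On both probes the young hearts spread most widely, with the lowest young value again in replicate 4. The aged differences were -0.17 (interval -0.51 to 0.17) and -0.03 (-0.55 to 0.49), with adjusted p of 0.667 and 0.973 by limma. Between spermidine and aged hearts the probes differed in sign, at 0.10 and -0.12, with adjusted p of 0.873 and 0.91. With the 3 arrays of unlike tissue left out, the first probe was at -0.35 in aged against young hearts, at an unadjusted p of 0.0208.

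Fkbp1b encodes calstabin 2, a small protein bound to the ryanodine receptor. Its probe (ILMN_1226268) read 10, 7, 16 and 12 units in young, 6, 5, 4 and 17 in aged hearts, and 9, 9, 6 and 3 in spermidine hearts. It stood above the background limit on 1 young, 1 aged and 0 spermidine arrays, so its levels were mostly not well above background. The fitted difference in aged hearts was -0.20 with an interval of -0.56 to 0.16 (adjusted p = 0.633, limma). Trdn encodes triadin, which anchors calsequestrin to the release channel. The array carried 1 probe for it (ILMN_2521511), which read between -9 and 3 units over the 12 arrays, was not above background on any of them and was not tested. That gives no more than a bound for triadin transcripts detected by this probe.

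**Figure D3:**
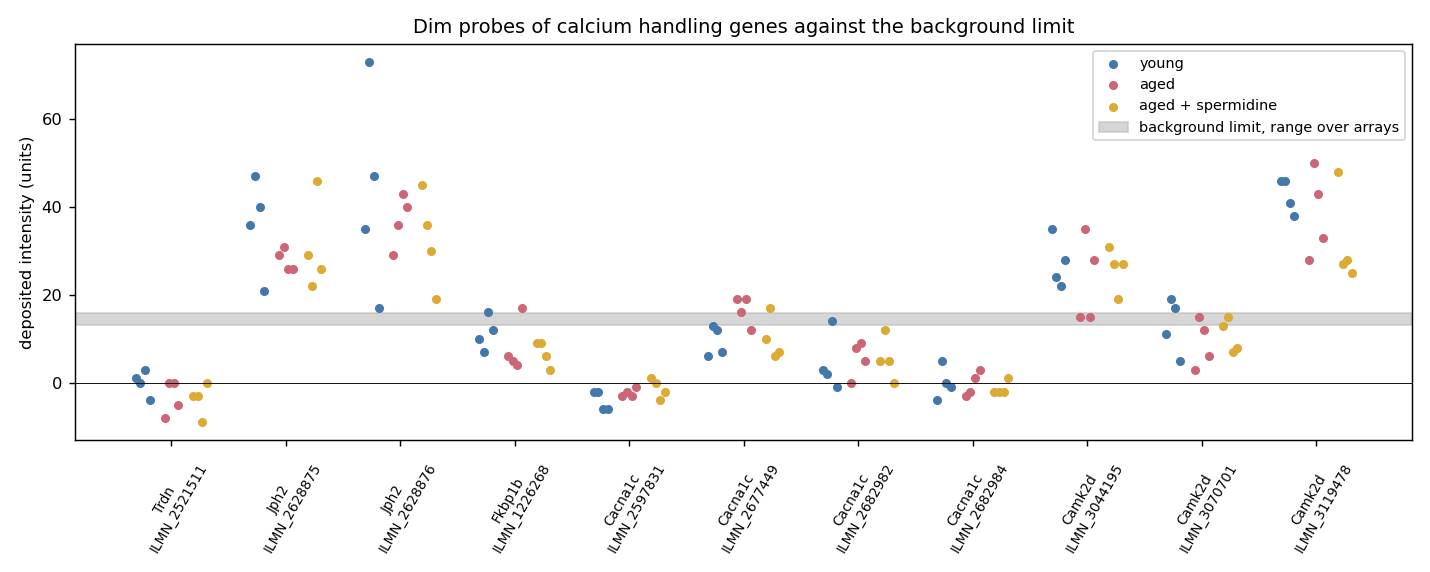
Deposited intensity (y axis, background already subtracted) of the 11 dim probes of calcium handling genes (x axis), with 1 point for each heart, coloured by group. The grey band is the range of the background limit over the 12 arrays (13.2 to 15.8 units). The probes of Trdn and Fkbp1b and those of Cacna1c lie at or below the band in most hearts, while Jph2 and 2 of the 3 Camk2d probes lie mostly above it.

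Calcium uptake is the work of Atp2a2, the gene of the pump SERCA2. Both its probes were among the brightest of the array, at ranks 48 to 76 (ILMN_1239742) and 9 to 23 (ILMN_1245425) of 25697. The former read 15073, 13987, 15281 and 14050 units in young, 13941, 13135, 12677 and 15714 in aged hearts, and 12831, 14272, 14589 and 13644 in spermidine hearts. The latter read 20795, 18926, 20621 and 20650 in young, 21562, 21854, 21553 and 19568 in aged hearts, and 20066, 20689, 18256 and 18279 in spermidine hearts. No group stood apart on either probe. The aged differences were -0.05 on both, with intervals of -0.26 to 0.17 and -0.26 to 0.15 (adjusted p = 0.88 and 0.853, limma), the narrowest intervals of all the member probes. As folds, aged over young, these intervals ran from 0.834 to 1.13 and from 0.836 to 1.11. Spermidine hearts differed from aged hearts by 0.02 and -0.03 (adjusted p = 0.961 and 0.94). At these ranks quantile normalization, which gives every array the same set of values, keeps little more than the order of the brightest probes. Scaling each array to its 75th percentile instead gave 0.12 in aged against young hearts for ILMN_1245425 (interval -0.15 to 0.38, adjusted p = 0.713), so that the sign of this small difference depended on the scaling.

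Pln encodes phospholamban, the inhibitor of the pump, and its probe (ILMN_2854828) came nearest to a difference between groups among the bright members. It read 4012, 2842, 4748 and 2995 units in young hearts. It read 2667, 2634, 2531 and 3305 in aged hearts, and 2948, 3063, 4038 and 3434 in spermidine hearts. Of the aged hearts 3 were below every heart of the other groups, and aged replicate 4 was above young replicates 2 and 4. Mean log2 levels were 11.80 ± 0.31 in young, 11.44 ± 0.18 in aged and 11.76 ± 0.17 in spermidine hearts. The aged difference was -0.36 with an interval of -0.70 to -0.02, a fold of 0.78 (unadjusted p = 0.0412, adjusted p = 0.324, limma). Of all tested probes, 12.7% had a p this low or lower. The spermidine difference was 0.32 with an interval of -0.03 to 0.66 (adjusted p = 0.548), and spermidine hearts differed from young hearts by -0.04, with an interval of -0.38 to 0.30 (adjusted p = 0.995). Over the alternatives tried, the aged difference stayed between -0.25 and -0.45 and the spermidine difference between 0.20 and 0.39, with adjusted p of at least 0.156 and 0.282.

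The balance of inhibitor to pump was read within each array as the log2 difference between the Pln probe and the brighter Atp2a2 probe. It was -2.40, -2.75, -2.23 and -2.80 in young hearts, -2.96, -2.90, -2.93 and -2.62 in aged hearts, and -2.69, -2.64, -2.31 and -2.37 in spermidine hearts. Replicates 1 to 3 of the aged group were the lowest of all 12 hearts, and aged replicate 4 lay inside the range of both other groups. Group means were -2.54 ± 0.27, -2.85 ± 0.16 and -2.50 ± 0.19 (SD, n = 4). Aged hearts differed from young hearts by -0.31 (two-sided exact permutation p = 0.114), spermidine hearts from aged hearts by 0.35 (exact p = 0.0857) and spermidine from young hearts by 0.04 (exact p = 0.714). After Benjamini-Hochberg adjustment over the 6 exact permutation tests of ratios the former pair of values became 0.343 each. The smallest p that 4 against 4 samples allow is 0.0286, so no ratio could pass the adjustment on its own. Such a ratio can show unequal change of the probes, not which of them changed, and its level has no meaning across probes. The ratio of Pln to the other Atp2a2 probe, ILMN_1239742, was not tested. By the normalized levels, every aged heart would lie below every spermidine heart in that ratio, while aged and young hearts would still overlap. The overlap of aged replicate 4 with the spermidine hearts thus depended on the probe chosen.

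**Figure D4:**
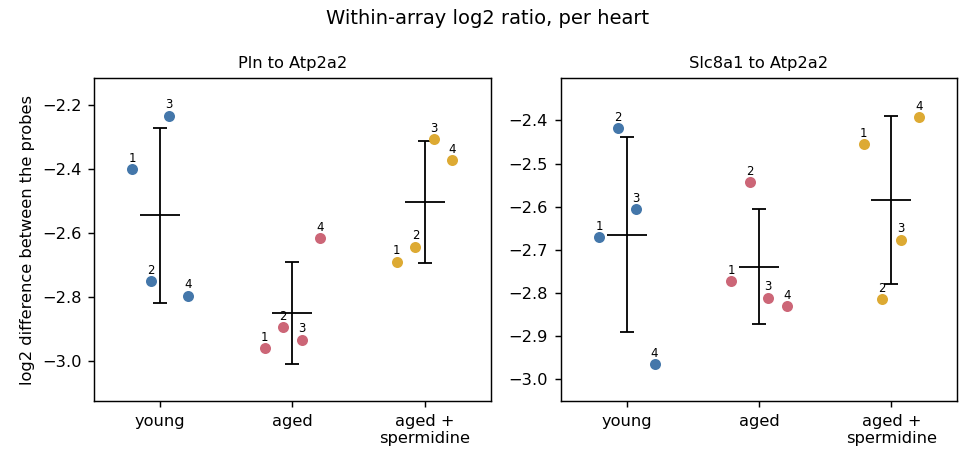
Within-array log2 difference (y axis) of the Pln probe (left) and the Slc8a1 probe (right) to the brighter Atp2a2 probe, by group. Points are hearts with their replicate numbers, long bars group means and whiskers 1 SD (n = 4). For Pln, aged replicates 1 to 3 are the 3 lowest hearts and aged replicate 4 overlaps the other groups. For Slc8a1 the groups overlap throughout.

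Slc8a1 encodes the sodium-calcium exchanger, which carries calcium out across the cell membrane. Its probe (ILMN_2756030) read 3345, 3689, 3701 and 2680 units in young, 3027, 3351, 2742 and 2853 in aged hearts, and 3460, 2704, 3137 and 3403 in spermidine hearts. The lowest reading of all belonged to a young heart, replicate 4, and the groups overlapped widely. The aged difference was -0.13 with an interval of -0.42 to 0.17 (adjusted p = 0.719, limma), and the spermidine difference against aged hearts was 0.12, with an interval of -0.17 to 0.42 (adjusted p = 0.805). Spermidine and young hearts differed by -0.00 with an interval of -0.30 to 0.29. Relative to the pump, the exchanger was at -2.67 ± 0.23 in young, -2.74 ± 0.13 in aged and -2.59 ± 0.20 in spermidine hearts. None of these ratios differed beyond their spread (exact permutation p = 0.6, 0.229 and 0.6 for aged against young, spermidine against aged and spermidine against young, adjusted 0.714, 0.457 and 0.714).

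Cacna1c encodes the pore of the L-type calcium channel and had 4 probes, all dim. ILMN_2677449 read 6, 13, 12 and 7 units in young, 19, 16, 19 and 12 in aged hearts, and 10, 17, 6 and 7 in spermidine hearts. It was above the background limit on 0 young, 3 aged and 1 spermidine arrays, and aged replicate 4 lay within the young range. Its mean log2 level was 4.65 in young and 5.02 in aged hearts, a fitted difference of 0.37 with an interval of 0.03 to 0.71 (unadjusted p = 0.0345, adjusted p = 0.306, limma). Because no young array was above background, the fold of the measured means can be stated only as at least 1.08-fold, a bound without sampling error. Against aged hearts the fitted difference of spermidine hearts was -0.31 with an interval of -0.64 to 0.03 (adjusted p = 0.551). The other Cacna1c probes were not above background on any array: ILMN_2682982 read -1 to 14 units, ILMN_2682984 -4 to 5 and ILMN_2597831 -6 to 1. The last was below the filter, and the fitted aged differences of the other pair were 0.10 and 0.01. A difference of this channel's transcripts was therefore not measurable by most of its probes.

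Camk2d encodes the main CaMKII isoform of the heart and had 4 probes. The brightest (ILMN_1222123) read 248, 259, 285 and 203 units in young, 214, 328, 273 and 226 in aged hearts, and 220, 181, 226 and 191 in spermidine hearts. The aged hearts held the highest value, and spermidine replicates 2 and 4 had the lowest readings in deposited units. After normalization the level of spermidine replicate 4 was above those of young replicate 4 and aged replicate 1. Mean log2 levels were 7.99 ± 0.13, 8.10 ± 0.30 and 7.83 ± 0.06. The aged difference was 0.11 (interval -0.19 to 0.42, adjusted p = 0.767, limma) and the spermidine difference against aged hearts was -0.28 (interval -0.58 to 0.03, adjusted p = 0.551). The other Camk2d probes did not share the sign in aged hearts: ILMN_3119478, read at 25 to 50 units, was at -0.08, ILMN_3044195, at 15 to 35 units, at -0.14, and ILMN_3070701, at 3 to 19 units, at -0.21, with adjusted p of 0.853, 0.756 and 0.659. Spermidine minus aged values of these probes were -0.16, 0.18 and 0.15. Which transcripts of the gene each probe detects was not annotated in the tables used here.

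Single hearts were the lowest of their group on several member probes. Among the 10 member probes that were above background on all 12 arrays, young replicate 4 had the lowest normalized level of the young hearts for 7, and aged replicate 1 that of the aged hearts for 8. In deposited units these counts were 7 and 4, so the latter depended on the normalization. Several of the 10 probes share a gene, and the like shares over all probes are not given here. Young replicate 4 and aged replicate 1 are among the arrays of unlike tissue make-up, with airway and adipocyte transcripts in the former and few atrial transcripts in the latter. The lymphocyte markers Cd3d and Cd3e were also highest in young replicate 4, at log2 levels of 7.44 and 6.80 against at most 5.31 and 4.72 in the other young hearts. The part of tissue make-up in these low readings was not tested. The spermidine group showed no such array, its lowest normalized levels being in replicates 1 to 4 for 2, 3, 4 and 1 probes. Across the 12 arrays, the bright Atp2a2 probe ILMN_1239742 and Pln had a Pearson r of 0.62, the brighter ILMN_1245425 and Pln of 0.30, and Ryr2 and Slc8a1 of 0.59, while Casq2 and Pln had 0.06. The Atp2a2 probes had an r of 0.39 with each other. With group means removed, these values were 0.639, 0.335, 0.54, -0.418 and 0.377 in the order given. Casq2 was then also at -0.382 and -0.384 with the Atp2a2 probes, but at 0.413 with Slc8a1 and 0.235 with Ryr2. These correlations are descriptions of 12 arrays that share their normalization and the unlike tissue make-up just described.

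The wider calcium machinery was taken as 5 lists of 97 genes, members included: release from the store, uptake, entry and extrusion across the cell membrane, kinases and phosphatases, and mitochondrial calcium transport. Of these, 81 genes had a probe, and 133 probes of 77 genes were tested. In aged against young hearts 2 of 133 probes passed, both higher and both of the gene Tmem38b, and 0 were lower. Over the whole array 0.54% of probes passed as higher and 0.258% as lower. In spermidine against aged and in spermidine against young hearts 0 of 133 passed. At an unadjusted p below 0.05 the lists held 11 higher and 8 lower probes in aged against young hearts, 6 and 11 in spermidine against aged, and 8 and 3 in spermidine against young. Of all tested probes, 7.31% were higher and 7.01% lower at that threshold in the aged comparison, 4.68% and 4.77% in spermidine against aged, and 4.32% and 3.17% in spermidine against young hearts.

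Tmem38b encodes TRIC-B, a potassium channel of the endoplasmic and sarcoplasmic reticulum membrane that carries the counter-ions for calcium release. It rose in aged hearts on both its probes. ILMN_2795791 read 398, 437, 427 and 381 units in young hearts, 669, 763, 693 and 745 in aged hearts, and 579, 516, 651 and 491 in spermidine hearts. ILMN_2795792 read 248, 237, 259 and 209 in young, 317, 350, 336 and 390 in aged hearts, and 295, 275, 306 and 248 in spermidine hearts. In normalized levels every aged heart was above every spermidine heart, and every spermidine heart above every young heart, on both probes. Such separation was found for 4.06% of all tested probes with aged above young, and for 3.33% with spermidine above young. Mean log2 levels on the former were 8.70 ± 0.05, 9.51 ± 0.13 and 9.21 ± 0.05 in young, aged and spermidine hearts, and on the latter 7.94 ± 0.08, 8.51 ± 0.11 and 8.25 ± 0.05. The aged difference was 0.82 with an interval of 0.60 to 1.04, or 1.76-fold (adjusted p = 0.00265, limma), and 0.57 with an interval of 0.35 to 0.79, or 1.49-fold (adjusted p = 0.0255). Both probes read the same gene in the same hearts and are not replicates of each other.

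Spermidine hearts differed from aged hearts in Tmem38b by -0.30 (interval -0.52 to -0.08) and -0.26 (interval -0.48 to -0.04), with adjusted p of 0.457 and 0.486 by limma, so that this difference did not pass. Separation with spermidine lower was found for 1.53% of all tested probes in this comparison. Against young hearts the spermidine differences were 0.51 (adjusted p = 0.0861) and 0.31 (adjusted p = 0.413). The aged call on ILMN_2795791 passed in all 23 alternatives tried, with adjusted p from 0.000247 to 0.0181. The call on ILMN_2795792 passed in 13 of 23 and was lost, at adjusted p up to 0.0815, when young replicate 1, 2, 3 or 4 or aged replicate 2 or 3 was left out, and at 0.0894 with the 3 arrays of unlike tissue left out. The macrophage markers, 4 measured genes of 6, had a summed intensity of 434 to 562 in young, 623 to 821 in aged and 468 to 831 in spermidine hearts. Of their 6 tested probes 0 passed in any comparison, 4 and 5 were higher at an unadjusted p below 0.05 in aged and in spermidine against young hearts, and 0 had such a p in spermidine against aged hearts. Their part in the Tmem38b difference was not tested. The related gene Tmem38a, whose product TRIC-A is the form described in striated muscle, read 1810 to 2318 units in young, 1500 to 2271 in aged and 1952 to 2107 in spermidine hearts. Its aged difference was -0.22 with an interval of -0.50 to 0.05 (adjusted p = 0.452).

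**Figure D5:**
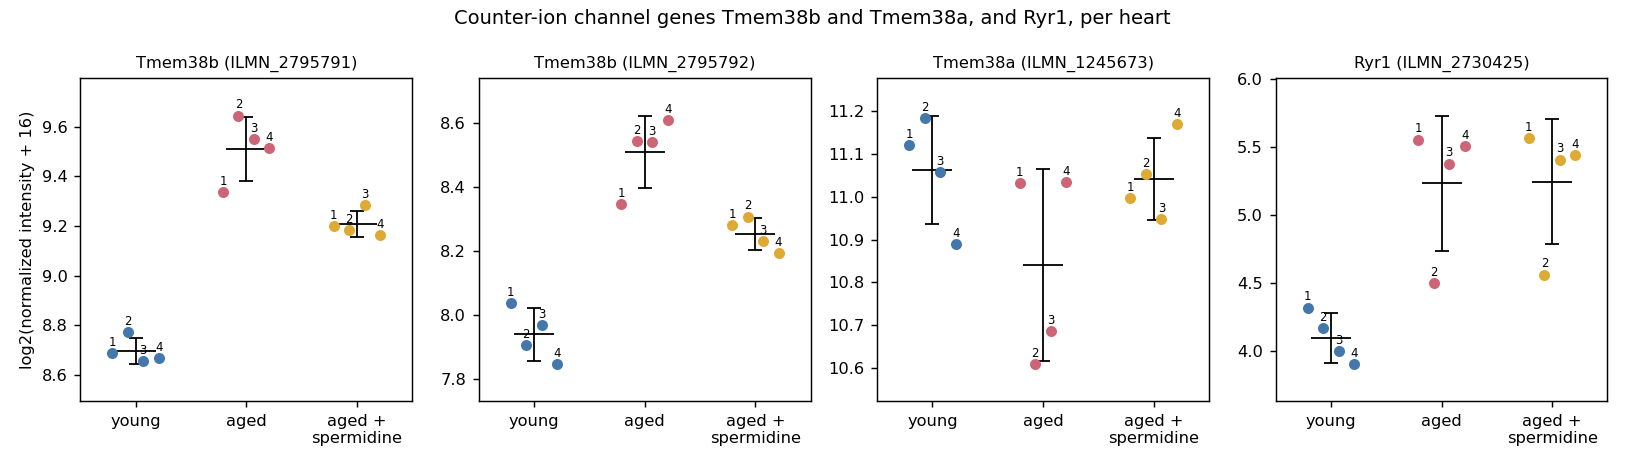
Normalized level (log2 of intensity + 16, y axes with different ranges) of both Tmem38b probes, Tmem38a and the Ryr1 probe ILMN_2730425, by group. Points are hearts with their replicate numbers, long bars group means and whiskers 1 SD (n = 4). On both Tmem38b probes the 3 groups do not overlap, with aged hearts highest and young hearts lowest. Tmem38a overlaps between groups, and Ryr1 lies near background in the young hearts.

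Next among the release genes by p in aged against young hearts came Ryr1, the ryanodine receptor of skeletal muscle. Its probe ILMN_2730425 read 4, 2, 0 and -1 units in young, 29, 7, 25 and 30 in aged hearts, and 31, 7, 29 and 24 in spermidine hearts. Replicate 2 of either aged group was near the young hearts, and the others were clearly above the background limit. The fitted aged difference was 1.14 with an interval of 0.60 to 1.68 (adjusted p = 0.0559, limma). As no young array was above background, the fold of the measured means was at least 1.26-fold, and at least 1.27-fold in spermidine against young hearts (adjusted p = 0.133). The aged difference passed when aged replicate 2 (adjusted p = 0.0161) or spermidine replicate 2 (adjusted p = 0.0313) was left out, and the difference of spermidine from young hearts when spermidine replicate 2 (adjusted p = 0.035) or aged replicate 2 (adjusted p = 0.0441) was. Another probe, ILMN_2733073, was at 0.84 (adjusted p = 0.105) with values of -3 to 0 units in young and 6 to 17 in aged hearts, mostly below the limit. The other 2 Ryr1 probes, also dim, were at 0.08 (ILMN_1220181) and 0.09 (ILMN_2842357). In spermidine against young hearts ILMN_2733073 was at 0.94, and the other 2 differed in sign, at -0.30 and 0.28. In spermidine against aged hearts ILMN_1220181, above the limit on 0 arrays of each group, was at -0.38 (adjusted p = 0.457, limma). ILMN_2730425, ILMN_2733073 and ILMN_2842357 were there at 0.01, 0.10 and 0.19. Skeletal muscle markers, of which 5 of 7 were above the limit on some array, summed to 10182 to 10582 units in young, 7584 to 12596 in aged and 8750 to 9722 in spermidine hearts. Most of each sum came from Ckm, at log2 levels of 12.8 to 13.2 in all hearts, and from Acta1. Myh1 and Myh4 were above the limit on 0 arrays and Tnnt3 on 1, so the sums say little of skeletal muscle RNA. Among the markers Tnni2, the fast skeletal troponin I gene, was at 0.63 in aged (unadjusted p = 0.00507, adjusted p = 0.146, limma) and 0.60 in spermidine against young hearts (unadjusted p = 0.00727, adjusted p = 0.398). Every heart of both aged groups was above every young heart, as for 4.06% (aged) and 3.33% (spermidine) of all tested probes. The markers did not move together. Of their 5 tested probes, 1 was higher and 2 were lower in aged against young hearts at an unadjusted p below 0.05 (limma). The part of skeletal muscle RNA in the Ryr1 values was not tested. Itpr2, an inositol trisphosphate receptor, was at -0.88 on its probe of lowest p (interval -1.54 to -0.22, adjusted p = 0.201), while its other probes were at -0.18 and 0.44.

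No other gene of the lists passed in any comparison, and those of lowest p are given with the values of their probe of lowest p. Among uptake genes in aged against young hearts, Tmx1, a membrane thioredoxin of the endoplasmic reticulum, was at -0.41 (adjusted p = 0.191). Sln, which encodes the atrial pump inhibitor sarcolipin, was at -0.91 (adjusted p = 0.509), with 909 units in aged replicate 1 against 6834 to 10543 in the other 11 hearts. Without that array, which held few atrial transcripts, it was at -0.06 (adjusted p = 0.904). Atp2a3, the SERCA3 pump, was at -0.14 on a probe below background. Set against aged hearts, spermidine hearts had Tmx1 at 0.37, Atp2a3 at 0.35 on a bright probe and Sln at 0.86, with adjusted p of 0.47, 0.518 and 0.666. The Sln value again rested on aged replicate 1 and was 0.01 without it (adjusted p = 0.993). Set against young hearts, they had Atp2a3 at 0.41, the SERCA1 gene Atp2a1 at 0.53 and the calcium-binding chaperone gene Calr at -0.26, with adjusted p of 0.55, 0.783 and 0.916.

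Among kinases, phosphatases and their regulators, Rcan1, an inhibitor and target of the calcium-dependent phosphatase calcineurin, was at 1.15 in aged against young hearts (interval 0.41 to 1.89, adjusted p = 0.147, limma). It was at -1.34 in spermidine against aged hearts (interval -2.08 to -0.60, adjusted p = 0.431), which shares the aged samples. Its other probe was at 0.13 and -0.11, so the probes of this gene disagreed. With spermidine replicate 1 left out, the former probe passed in both comparisons (adjusted p = 0.0187 and 0.0114). The CaMKII gene Camk2a was at -0.45 and 0.38 in the same comparisons (adjusted p = 0.206 and 0.502) on 1 of its 3 tested probes, the others being at -0.13 and -0.11 (ILMN_2618525) and at -0.05 and 0.11 (ILMN_2677393). The inhibitory G protein gene Gnai2 was at -0.39 and 0.40 (adjusted p = 0.215 and 0.457). In spermidine against young hearts Camk2b was at 0.63 (adjusted p = 0.378), Camk2g at -0.21 (adjusted p = 0.704) and the adenylyl cyclase gene Adcy6 at -0.50 on a probe below background (adjusted p = 0.789).

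At the cell membrane, the T-type calcium channel gene Cacna1h was at -0.86 in aged against young hearts (interval -1.50 to -0.22, adjusted p = 0.199, limma), and at -0.51 with the 3 arrays of unlike tissue left out. Fxyd1, which encodes phospholemman, a regulator of the sodium pump, was at -0.46 (adjusted p = 0.356), and the calcium pump gene Atp2b2 at 0.55 on a probe below background (adjusted p = 0.215). With spermidine set against aged hearts, Fxyd1 was at 0.38 (adjusted p = 0.589), the channel-binding small GTPase gene Rrad at -0.26 (adjusted p = 0.647) and the channel subunit gene Cacnb1 at -0.27 (adjusted p = 0.659). With spermidine set against young hearts, Rrad was at -0.54 (interval -0.90 to -0.17, adjusted p = 0.395), while Atp2b2 at 0.66 and Cacng6 at 0.35 were below background on all arrays compared.

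The store-resident protein gene Asph, whose products include junctin, was at -0.52 on its probe of lowest p in spermidine against aged hearts (adjusted p = 0.457, limma), with its other 12 probes between -0.61 and 0.18. Of mitochondrial genes, Letm1, the uniporter pore gene Mcu and its subunit gene Smdt1 were at 0.17, 0.20 and 0.09 in aged against young hearts (adjusted p = 0.603, 0.673 and 0.771). The uniporter regulator gene Micu2 was at 0.31 in spermidine against aged hearts (adjusted p = 0.571) and 0.21 in spermidine against young hearts (adjusted p = 0.898). The probes of mitochondrial genes numbered 11, and 0 of them had an unadjusted p below 0.05 in any of the 3 comparisons.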

How the data were processed

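The submitters deposited linear intensity values of 25697 probes on 12 arrays, in a table called non-normalized and in a normalized one. Of the deposited intensity values of the former, 24.1% lay below 0, so a background had been subtracted before deposit, and the planned normexp correction was not applied. The method behind the normalized table, whose arrays all have a median intensity of 21, is not given in the sources used here. RNA was extracted with Trizol and a column kit and labelled with biotin, per the labels' protocols.

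Arrays were quantile normalized, 16 was added and log2 taken (R 4.3.3, limma 3.58.1). Differences on this log2 scale understate those of dim probes. Probes were kept if 4 or more arrays read them above that array's 25th percentile. A limma model of 3 group means with 9 residual degrees of freedom gave two-sided p-values, Benjamini-Hochberg adjusted over the 20573 kept probes with a threshold of 0.05, and 95% intervals. The procedure was tested on simulated data with independent noise and shifts placed only in bright probes of low spread. That test does not show how it performs on dim probes, smaller differences or arrays of unlike tissue. The background limit of an array was 3 SD of its values below 0 mirrored about 0, and the number of arrays limits the precision. The bound on a fold sets the dim group at the higher, on each array, of its own level and the lowest level above the limit. It describes the measured group means and includes no sampling error. Probe names came from the platform annotation, which gives 1 symbol to 23978 probes and none to 1719. Ratios were compared by exact permutation tests over 70 arrangements, and under the replicate block by flipping the signs of differences between same-numbered samples.

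All members were named, and of other genes those passing plus, in most lists and comparisons, the 3 of lowest p. In the remaining ones fewer than 3 were named. For likeness, the 2 named genes of highest correlation were taken for each member. The members and lists were chosen with earlier results of these data known. Same-numbered samples of different groups did not clearly deviate together: r was -0.324 to 0.196 over 12 such pairs, and above 0.1 in 3. The numbers were therefore not treated as pairs, although such values cannot exclude a weak pairing. Other normalizations, constants, filters, array weights, sets of arrays and a replicate block were tried as alternatives.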

Additional observations from a re-analysis of the deposited data

Results flagged for a closer look

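In 3 of 54 sets of 4 values (member probes by group), 1 sample lay far from the other 3, and chance gives about 5% of such sets. All 3 were in the spermidine group. For Ryr2 (ILMN_1242706), replicate 2 was low, at 182 units against 273 to 333 in the other spermidine hearts, with a gap of 0.908 of the group's range, past Dixon's critical value. Without that array, the spermidine difference was 0.35 against aged hearts (interval -0.23 to 0.94) and 0.08 against young hearts, in place of 0.20 and -0.07. For Camk2d (ILMN_3044195), replicate 3 was low, at 19 units against 27 to 31, with a share of 0.893. For Cacna1c (ILMN_2682984), replicate 4 was high, at 1 unit against -2 in the others, with a share of 0.832, and all its readings were below background.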

How the results depend on the processing

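The count of calcium handling probes that passed was 0 in all 3 comparisons under every alternative. Over these, 0 of 364 member values per comparison passed; the lowest adjusted p were 0.156 in aged against young, 0.266 in spermidine against aged and 0.474 in spermidine against young hearts, and 16, 15 and 33 values had a sign other than the reported one. Without adjustment, 0 to 4 members had p below 0.05 in aged against young hearts, 4 of them without young replicate 4; 0 to 3 had it in spermidine against aged hearts, 3 without aged replicate 4, and 0 to 1 in spermidine against young hearts. The ratios of Pln and Slc8a1 to Atp2a2 passed in no alternative, and all of these used the brighter Atp2a2 probe. Under the replicate block, and without the 3 arrays of unlike tissue make-up, the smallest possible p lay above the threshold. In the other alternatives no ratio could pass the adjustment on its own, so this outcome is no sign of stability.

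Counts over all probes moved more. In aged against young hearts 164 probes passed, against 299 in the submitters' normalized table, 70 with a constant of 4 and 373 with 64, 90 with no filter, 331 with a filter at the background limit, 372 with array weights, 97 from only these 2 groups and 50 without the 3 arrays of unlike tissue make-up. Leaving out single arrays gave 41 to 559: 41, 49, 42 and 75 without young replicates 1 to 4, 77, 77, 102 and 559 without aged replicates 1 to 4, and 132 to 145 without a spermidine array. In spermidine against aged hearts 1 passed, and 0 with a constant of 4 or 64 (1758 and 2126 at an unadjusted p below 0.05), with 0 to 49 when single arrays were left out: 49 without aged replicate 4, 3 without aged replicate 2, 5 without spermidine replicate 1 or 4, and 0 without aged replicate 1 or 3 or spermidine replicate 2 or 3 (1540 to 1971 at an unadjusted p below 0.05). In spermidine against young hearts 33 passed, against 105 with array weights, 51 from only these 2 groups, 16 without the 3 arrays, and 16 to 48 without single arrays: 16, 20 and 17 lacking young replicates 1 to 3 and 19 and 18 lacking spermidine replicates 3 and 4. With the replicate block, 96, 0 and 30 probes passed (2006 at an unadjusted p below 0.05 for the 0), and no member passed. There the ratios were tested by flipping the signs of the 4 differences between same-numbered samples. The Pln to Atp2a2 ratio had exact p of 0.375 and 0.125 in the former pair of comparisons by this sign-flip test. It allows no p smaller than 0.125. Tmem38b ILMN_2795792 reached adjusted p = 0.0574 with median scaling, 0.0648 with the block and 0.069 from the 2 groups alone. Ryr1 ILMN_2730425 passed in 5 of 23 alternatives, the submitters' table among them (adjusted p = 0.0431), and in 3 of 23 in spermidine against young hearts (lowest 0.035); ILMN_2733073 passed in 2 and 1 of 22 (lowest 0.0474 and 0.0306). In spermidine against young hearts, Tmem38b ILMN_2795791 passed in 4 of 23. The causes of these shifts were not tested. The 75th percentile scaling and the alternatives for Tmem38b, Ryr1, Sln and the other listed genes were added after seeing the data. Among those, Rcan1 passed without spermidine replicate 1, and Ppp1ca and an Itpr2 probe without aged replicate 4, in both aged against young and spermidine against aged hearts (adjusted p = 0.0353 and 0.0495, and 0.0294 and 0.049). The low signal of Trdn, Fkbp1b, Cacna1c and dim Camk2d probes limits what they show.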

Other observations

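For each member, the named probes whose normalized level followed it most closely over the 12 arrays were looked up among 4242 bright probes of other genes. Ryr2 was followed by Zcchc7 (Pearson r = 0.90) and Sertad2 (0.88), and Casq2 by Unc45b (0.90), a myosin chaperone of striated muscle, and Scmh1 (0.88). Atp2a2 (ILMN_1245425) was followed by Ncstn (0.93) and Mospd1 (0.87), Pln by the splicing factor gene Srsf2 (0.90) and Midn (0.89), and Slc8a1 by Nfyc (0.87) and Asb2 (0.86). Camk2d (ILMN_1222123) was followed by the RNA helicase gene Dhx15 (0.93) and Stx7 (0.92). Jph2, Fkbp1b and Cacna1c, all dim, had Akap9 (0.89) and Nop58 (0.87), the collagen gene Col4a1 (0.88) and Rin2 (0.82), and Gkap1 (0.85) and the heat shock gene Hspa8 (0.83). These highest values among so many candidates describe these 12 arrays only, which share their normalization. Trdn had no tested probe and so no such gene.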
